A study of Homo sapiens with 6 samples.

Results

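The Tribbles genes are a family of 3 in human, TRIB1, TRIB2 and TRIB3. They were taken by name from the series' table, in which all 3 of them have an entry among 26485 entries. The family was selected on its measured fold changes between ML141 and DMSO in these same libraries, so its values in that comparison are given as a description, with no test.

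Tribbles proteins have the fold of a protein kinase but little or no kinase activity, and act as scaffolds. TRIB1 and TRIB2 are best known for carrying substrates, C/EBPα above all, to the ubiquitin ligase COP1 for degradation, and in mouse bone marrow forced expression of either causes acute myeloid leukemia. TRIB3 is best known as a gene switched on by the transcription factors ATF4 and DDIT3 (CHOP) when cells are short of amino acids or carry unfolded protein, and its protein binds AKT, ATF4 and DDIT3.

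The RNA came from REH, a human precursor B cell leukemia line that carries the ETV6-RUNX1 fusion. There were 3 libraries of cells given 25 µM ML141, an inhibitor of the GTPase CDC42, and 3 of cells given the solvent DMSO, all after 24 h. The series' design text speaks of 3 independent experiments. Total counts were 10436147 to 12308039 in the ML141 libraries and 8284299 to 10837224 in the DMSO libraries.

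All 13 markers of precursor B cells had counts, summing to 9133 to 9509 CPM (counts relative to library size, with sizes scaled by edgeR's TMM method) with ML141 and to 7466 to 8045 CPM with DMSO. Of 7 T cell markers 6 are in the table and 3 had counts, and the list summed to at most 0.774 CPM in ML141 libraries and 0.648 CPM in DMSO libraries, with CD3D, CD3G and CD2 at 0. Of 8 myeloid markers 6 had counts, with ELANE and S100A8 at 0, and the list summed to 32.7 to 36.3 CPM with ML141 and 49.1 to 50.3 CPM with DMSO. Of 5 erythroid markers HBB, HBA1 and HBA2 were at 0, and the list summed to 0 CPM with ML141 and at most 0.104 CPM with DMSO. Of 6 fibroblast or epithelial markers KRT8, KRT18 and EPCAM were at 0, and the list summed to 0.556 to 1.72 CPM with ML141 and 1.87 to 2.07 CPM with DMSO. What part these shifts have in the values below was not tested. Fewer cells that express a gene and less of its RNA per cell cannot be told apart in such libraries. Over the whole table edgeR's quasi-likelihood test called 6230 of 11454 genes (adjusted p under 0.05), and 49.1% of the calls were higher with ML141. That share was 59.5% with upper-quartile factors and 66.1% with library totals, scalings that shift the typical gene by 0.10 and 0.17 on the log2 scale.

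In human cells TRIB3 is known to be switched on through a repeated element near its start. The element joins part of the C/EBP motif to part of the ATF motif, and ATF4 binds it together with a C/EBP partner. The first exon of the annotated transcript TRIB3-201, on chromosome 20 from 380617 to 381169 (GRCh38, GENCODE 29), holds the letters TGATGCAA 3 times on the minus strand, 33 bases apart. The 30 bases around each copy are identical. They lie in the 5′ UTR of that transcript, at chr20:380881-380910, chr20:380914-380943 and chr20:380947-380976. The sequence is shown with matches from promoters of other ATF4 targets in the same table because the shared letters, in capitals, stand in different surroundings. Each runs 5′ to 3′ on the strand that holds TGATGCAA. The TRIB3 run is from GENCODE and the others are from RefSeq (GRCh38.p14).

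TRIB3, minus strand, each of 3 copies: cccggtccgggTGATGCAAaccggagctaa
CHAC1, minus strand, chr15:40953251-40953280: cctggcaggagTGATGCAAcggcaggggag
HERPUD1, minus strand, chr16:56931955-56931984: tgggcacgggcTGATGCAAcccgccgcgtc
AARS, plus strand, chr16:70289675-70289704: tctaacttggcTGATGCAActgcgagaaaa
MARS, minus strand, chr12:57488053-57488082: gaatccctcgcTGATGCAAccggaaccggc
CARS, plus strand, chr11:3057407-3057436: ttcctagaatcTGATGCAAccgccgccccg
NARS, minus strand, chr18:57621804-57621833: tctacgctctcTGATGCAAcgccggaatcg

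Outside the shared letters the 7 runs differ. Among 19669 genes with coding transcripts in GENCODE 29, TRIB3 was the single gene with 3 copies of TGATGCAA, on either strand, within a stretch of 100 bases of a coding transcript. Promoters were searched separately, on both strands, over 250 bases before to 50 after each RefSeq start, for any match and not for 3 copies. TGATGCAA was in the promoters of 295 of 27305 genes (1.08%) and in those of 6 of the 25 tested ATF4 targets that have one in the RefSeq table. The looser TGATGNAA, which includes every TGATGCAA match, was in 1217 of 27305 (4.46%) and in 10 of the 25. The 3 RefSeq promoter windows of TRIB3 begin past the repeats and hold neither, and the TRIB2 window holds neither. The last repeat ends 319 bases before the first listed RefSeq start. By these starts the search for 3 copies would not have covered the repeats, and such sequence was not searched for 3 copies in other genes. These are matches of letters, not measured binding.

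TRIB3, the stress-induced member, was the most abundant Tribbles transcript with ML141. Its level was 473, 491 and 511 CPM in ML141 replicates 1, 2 and 3, against 38.0, 31.4 and 36.3 CPM in DMSO replicates 1, 2 and 3. The lowest ML141 library stood 12.4-fold above the highest DMSO library, so the groups were far apart. The means were 491.7 ± 18.9 CPM with ML141 and 35.2 ± 3.43 CPM with DMSO (SD, n = 3 each), a fitted log2 fold change of 3.80 (SE 0.096), or 13.97-fold. Only 13 of the 11454 genes tested had a larger log2 fold change, which put TRIB3 at rank 14. The counts behind these levels summed to 17563 with ML141 and 973 with DMSO. In the authors' deposited table the log2 fold change is 3.798.

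TRIB1, which like TRIB2 acts with COP1 on C/EBP proteins, went the other way. Its level was 9.36, 12.7 and 7.82 CPM in ML141 replicates 1, 2 and 3, against 36.3, 38.8 and 29.7 CPM in DMSO replicates 1, 2 and 3. Every ML141 library lay below every DMSO library, and the highest ML141 library was 2.34-fold below the lowest DMSO library. The means were 9.95 ± 2.48 CPM with ML141 and 34.9 ± 4.69 CPM with DMSO (SD, n = 3 each), a fitted log2 fold change of -1.80 (SE 0.176), or 3.48-fold lower. That was the 108th lowest log2 fold change of the genes tested. The counts summed to 360 with ML141 and 962 with DMSO. The authors' deposited table has a log2 fold change of -1.813.

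TRIB2, the member most often tied to lymphoid and myeloid leukemia, was barely detected in either group. It had 0, 1 and 0 counts in ML141 replicates 1, 2 and 3, and 1, 1 and 0 counts in DMSO replicates 1, 2 and 3. A library with no count allows a level of up to 3 counts, which is 0.226 to 0.278 CPM in the ML141 libraries and 0.289 to 0.389 CPM in the DMSO libraries, counting error only. Every library read under the level of 3 counts, though a library with 1 count allows a higher level than a library with none. No fold is given, and the gene did not pass the low-count filter.

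Over all genes tested, 54.4% were called by edgeR's quasi-likelihood test (26.7% higher and 27.7% lower with ML141), and 61.2% had groups that did not overlap (30.5% higher and 30.7% lower). TRIB3 and TRIB1 are 2 of those genes by either count, which the choice of the family on this comparison fixed, so nothing is read from it. None of the 3 genes shares exon bases with another gene in the GENCODE basic annotation. They lie on chromosome 8 (TRIB1), chromosome 2 from 12716889 to 12742734 (TRIB2) and chromosome 20 from 362835 to 397559 (TRIB3) of GRCh38, all on the plus strand.

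**Figure D1:**
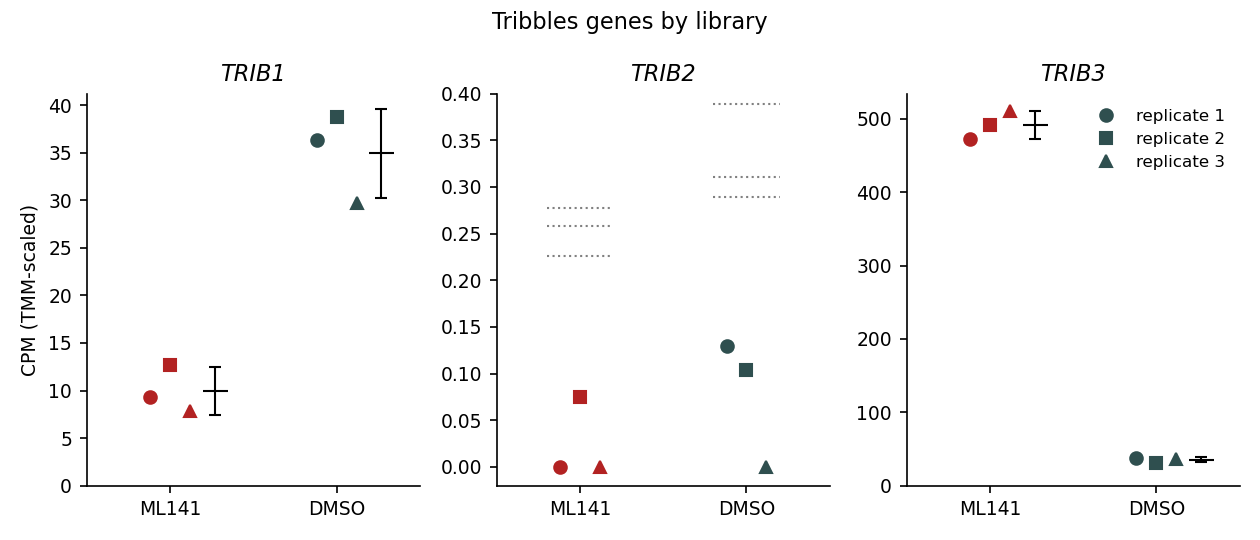
Level of TRIB1, TRIB2 and TRIB3 in each library, in CPM on TMM-scaled library sizes, with ML141 libraries (red) left of DMSO libraries (dark) and marker shapes for the replicate number. Bars at the side of TRIB1 and TRIB3 give the mean ± SD of 3 libraries, and dotted lines in the TRIB2 panel are the levels that 3 counts stand for in each library. TRIB3 lies at 473 to 511 CPM with ML141 and TRIB1 at 7.82 to 12.7 CPM, while all TRIB2 points lie under the dotted lines.

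Levels of different genes can be compared only per length, here as CPM per kilobase of annotated exon. With ML141, TRIB3 stood at 169.7 ± 6.53 CPM per kilobase and TRIB1 at 2.54 ± 0.634. With DMSO, TRIB3 stood at 12.2 ± 1.18 and TRIB1 at 8.93 ± 1.20 CPM per kilobase (SD, n = 3 each). The order was therefore TRIB3, TRIB1, TRIB2 in both groups, with a wide gap between the first members in ML141 libraries and a narrow one in DMSO libraries. The DMSO values of TRIB3, 10.8 to 13.1, and of TRIB1, 7.59 to 9.91, did not overlap, and TRIB3 was the higher of the pair in each of the 3 DMSO libraries.

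The ratio of TRIB3 to TRIB1 per kilobase was 68.2, 52.4 and 88.1 in ML141 replicates 1, 2 and 3, against 1.41, 1.09 and 1.65 in DMSO replicates 1, 2 and 3. TRIB3 made up 98.5 ± 0.382% of the family's summed level with ML141 and 57.6 ± 5.11% with DMSO. The sum itself was 172.3 ± 6.36 CPM per kilobase with ML141 and 21.1 ± 1.18 with DMSO. Thus the family as a whole was higher with ML141 although one of its members was lower.

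**Figure D2:**
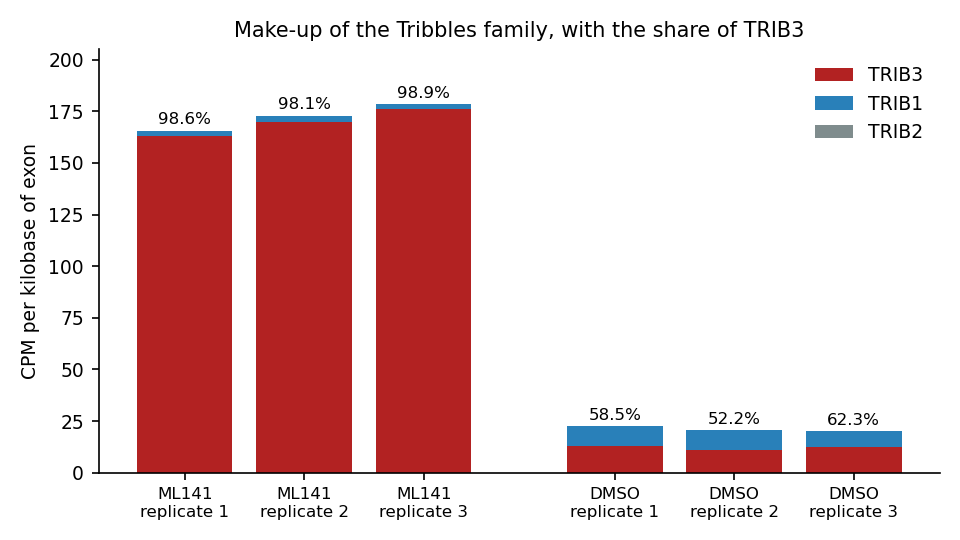
Summed level of the Tribbles genes in each library, in CPM per kilobase of annotated exon, stacked by gene, with ML141 libraries left of DMSO libraries. The number over each bar is the share of TRIB3, which is 98.1% to 98.9% with ML141 and 52.2% to 62.3% with DMSO.

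The members also differed in how much they varied between replicates. With ML141 the coefficient of variation of TRIB3 was 3.85%, against a median of 8.10% for 683 genes within 2-fold of its level, of which 14.6% varied less. With DMSO it was 9.73%, against a median of 7.26%, and 68.2% of such genes varied less. TRIB1 varied more than most genes of like level in both groups. Its coefficient of variation was 24.9% with ML141, where the median of 2353 genes was 13.3% and 86.0% varied less. With DMSO it was 13.4%, against a median of 7.28%, and 85.6% varied less. Each of these values rests on 3 libraries. ML141 replicate 2 was the highest of its group for TRIB1 and DMSO replicate 2 the highest of its own, while for TRIB3 they were the middle and the lowest.

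Upstream of TRIB3, 8 transcription factors listed with the integrated stress response were higher with ML141. EIF2AK4 and EIF2B4, a kinase and an exchange factor subunit of the response, were called higher with upper-quartile factors and with library totals but not with TMM, at 0.10 and 0.18 on the log2 scale. Of 22 tested genes listed with this response 9 were higher and 6 lower, where 26.7% and 27.7% of all genes tested were called. The median log2 fold change was 0.13, against 0.017 over all genes tested. The other higher gene was the phosphatase subunit PPP1R15A. XBP1, at 0.41 on the log2 scale (SE 0.119), is counted among the 8 factors but belongs to the unfolded protein response. ATF6 and NFE2L2, also in the list, are likewise not specific to the eIF2 pathway and did not pass the test. ATF4, the factor translated when eIF2 is phosphorylated, had 692, 696 and 668 CPM in ML141 replicates 1, 2 and 3, against 369, 406 and 392 CPM in DMSO replicates 1, 2 and 3. Its groups did not overlap, and the log2 fold change was 0.82 (SE 0.075, adjusted p by edgeR = 3.96e-06).

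DDIT3, which joins ATF4 on the TRIB3 element, had 90.4, 53.6 and 67.6 CPM in ML141 replicates 1, 2 and 3, against 9.33, 8.29 and 6.75 CPM in DMSO replicates 1, 2 and 3. The ML141 libraries spread widely but all lay above the DMSO libraries, with a log2 fold change of 3.13 (SE 0.201, adjusted p by edgeR = 3.06e-07). CEBPB, a C/EBP factor that pairs with ATF4, averaged 44.6 ± 5.68 CPM with ML141 and 9.47 ± 0.360 CPM with DMSO, 4.70-fold higher. PPP1R15A, which returns eIF2 to its active form, rose 7.98-fold (edgeR adjusted p = 3.09e-08). ATF5, a factor translated like ATF4, rose 3.24-fold, although 21.9% of its exon bases overlap NUP62 on the opposite strand and the counts may not separate them. CEBPG rose by 1.08 on the log2 scale, ATF3 by 1.07 and JDP2 by 1.04.

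The lower genes encode eIF2, its exchange factor and its kinases. EIF2B3, a subunit of the exchange factor that recharges eIF2, averaged 25.3 ± 2.71 CPM with ML141 and 51.0 ± 2.52 CPM with DMSO, a log2 fold change of -1.02 (SE 0.111, adjusted p by edgeR = 1.4e-05). EIF2B1 and EIF2B5, of the same complex, fell by 0.48 and 0.42 on the log2 scale, and EIF2S1, the phosphorylated subunit of eIF2, by 0.59. Of the kinases of eIF2, EIF2AK2 (PKR) fell by 0.46 and EIF2AK1 (HRI) by 0.31, a call lost with library totals. EIF2AK3 (PERK) at -0.21 (SE 0.099) did not pass the test, but was called lower without ML141 replicate 1 or DMSO replicate 2. EIF2AK4 (GCN2) stood at 0.10 (SE 0.083). On the opposite strand, DDX55 overlaps 15.4% of the exon bases of EIF2B1, AIMP2 11.9% of EIF2AK1 and AC104134.1 16.2% of EIF2AK3. NUPR1, a further stress factor, had no count.

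Targets of ATF4 other than TRIB3 were mostly higher with ML141 as well. Of 30 tested genes 22 rose and 1 fell, beside 26.7% and 27.7% of all genes, the median being 0.82 on the log2 scale. The list was chosen with this response known. The largest fold change among them was below that of TRIB3. SLC6A9, a glycine transporter, had the largest, 3.03 (SE 0.444), on 77 counts with ML141 and 7 with DMSO. CHAC1, which breaks down glutathione, followed at 2.67 (SE 0.335), and DDIT4, which restrains mTORC1, at 2.40 (SE 0.136). DMSO replicate 1 was the highest DMSO library for SLC6A9 and CHAC1, and without it they stood at 3.75 and 3.39, with TRIB3 at 3.86. DDIT4 shares 48.5% of its exon bases with DDIT4-AS1 on the opposite strand.

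HERPUD1, of endoplasmic reticulum protein degradation, averaged 223 ± 26.5 CPM with ML141 and 48.7 ± 3.09 CPM with DMSO. SESN2, also a brake on mTORC1, rose 4.05-fold. WARS, which charges tRNA with tryptophan, rose 3.23-fold. ALDH18A1, of proline synthesis, was the single gene that fell, to 128 ± 1.28 CPM with ML141, against 249 ± 17.7 CPM with DMSO (edgeR adjusted p = 1.89e-06). Of the carriers of the TGATGCAA letters printed above, CHAC1, HERPUD1, AARS (1.08, SE 0.085), CARS (1.07, SE 0.229) and MARS (0.24, SE 0.075) rose, where 22 of all 30 tested targets rose. CARS rested on 192 counts with ML141 and 71 with DMSO. The MARS call was lost without DMSO replicate 3 and without replicate 2 or 3 of both groups. NARS, at -0.042 (SE 0.100, adjusted p by edgeR = 0.744), did not pass the test. It stood above 0 with upper-quartile factors or library totals or without ML141 replicate 2 or 3, among other settings.

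**Figure D3:**
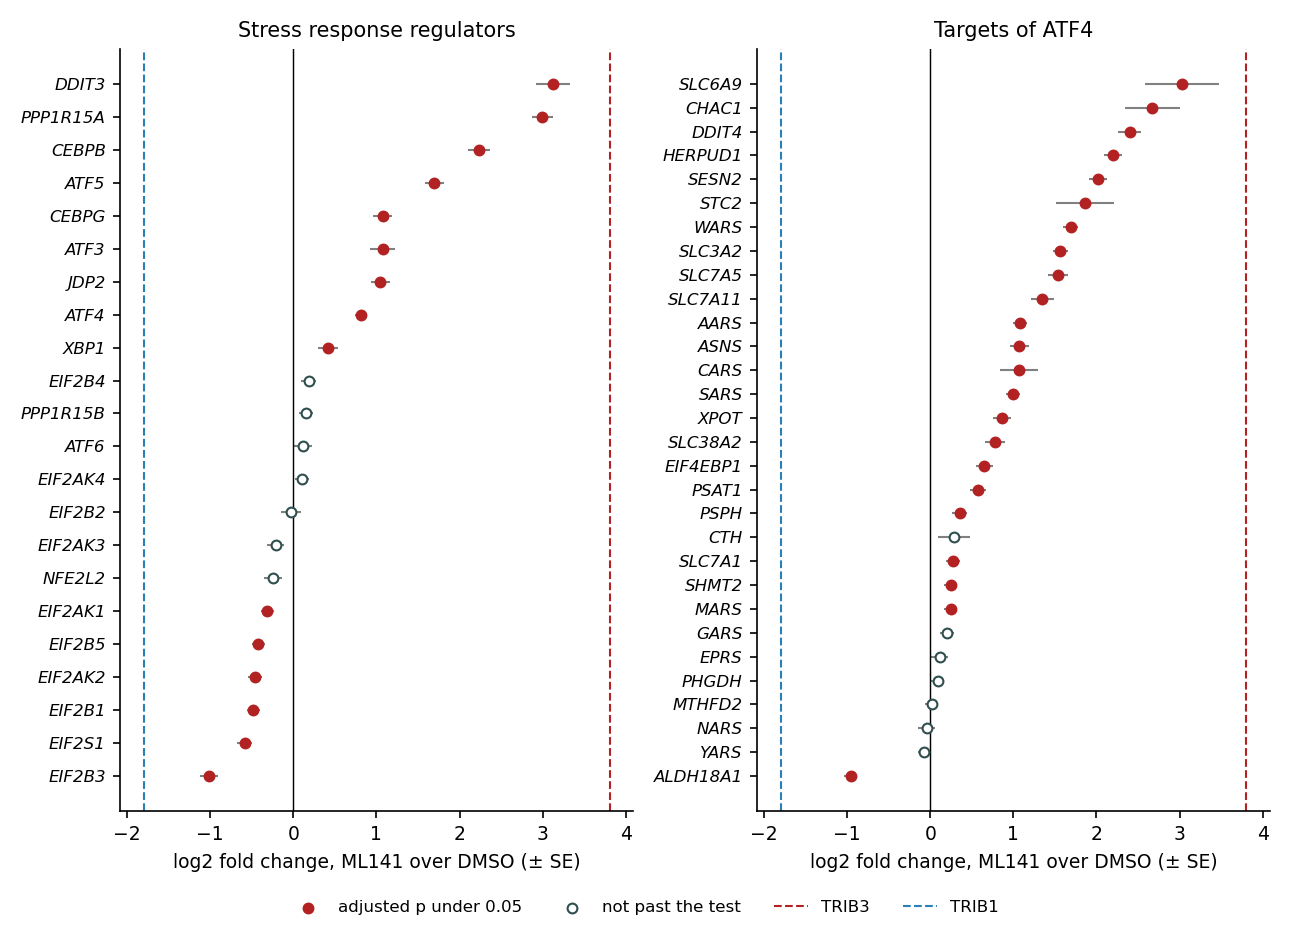
Log2 fold change, ML141 over DMSO, with its SE, of the tested stress response regulators (left) and ATF4 targets (right), in order of size. Filled points passed edgeR's test at an adjusted p of 0.05, and the dashed lines mark TRIB3 at 3.80 and TRIB1 at -1.80. No gene of either list reaches the TRIB3 line.

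Among the ligase genes through which Tribbles proteins act, COP1 did not pass the test. COP1, listed under its older name RFWD2 and itself the ligase, averaged 99.2 ± 10.96 CPM with ML141 and 97.0 ± 7.90 CPM with DMSO, a log2 fold change of 0.034 (SE 0.101, adjusted p by edgeR = 0.795) that was below 0 without ML141 replicate 1 or DMSO replicate 3. The list of 16 tested ligase and adaptor genes also holds RPS6KB1, USP7 and SQSTM1, which are not ligase genes. Of the 16, 3 were higher and 6 lower, against 26.7% and 27.7% over all genes, with a list median of -0.021. The lower ones include DDB1, a core subunit, at -0.55 (SE 0.077) and RBX1, the RING subunit of cullin ligases, at -0.79 (SE 0.110). SKP1, the adaptor of F-box ligases, fell by 0.44 and USP7, a deubiquitinase, by 0.47. SMURF1, reported to degrade TRIB2, had a log2 fold change of 0.027 (SE 0.127, adjusted p by edgeR = 0.872), below 0 without ML141 replicate 2 or 3 or DMSO replicate 3.

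DET1, a partner of COP1, was higher by a log2 fold change of 1.10 (SE 0.161), but AC013489.1, on the same strand, covers 93.2% of the DET1 exon bases. SIAH2, a RING ligase, rose 1.43-fold. SQSTM1, the autophagy receptor that binds TRIB3, rose 1.25-fold, where 39.8% of exon bases overlap MRNIP on the opposite strand. The SQSTM1 call was lost without DMSO replicate 2 and without replicate 2 or 3 of both groups. With upper-quartile factors or library totals 6 genes of this list were higher.

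Among the proteins that COP1 or Tribbles scaffolds are reported to degrade, the main myeloid one was not detected. CEBPA had 0 counts in all 6 libraries, which allows the upper limits given above for a library with no count. CEBPB, in contrast, was 4.70-fold higher with ML141, as given above, with 11.8% of its exon bases overlapping CEBPB-AS1 on the opposite strand. Of 13 tested substrates 7 were higher and 2 lower, against 26.7% and 27.7% of all genes, with a median log2 fold change of 0.23. CDC25A, the phosphatase that drives entry into S phase, fell to 12.2 ± 2.28 CPM with ML141, against 60.4 ± 4.40 CPM with DMSO (edgeR adjusted p = 2.23e-07).

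ETV4, an ETS factor, fell by 0.71 on the log2 scale (SE 0.153). ETV6 rose 3.26-fold, CRTC2, a coactivator of CREB, 1.61-fold and FOXO3, a forkhead factor that TRIB2 is reported to restrain, 1.36-fold. Reads of the ETV6-RUNX1 fusion cannot be told apart from those of ETV6 in gene counts. ACACA, the acetyl-CoA carboxylase that TRIB3 brings to COP1 in mouse fat, had 36 counts with ML141 and 37 with DMSO (edgeR adjusted p = 0.338). Without replicate 3 of both groups 4 substrates rather than 7 were higher.

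Of the kinases that Tribbles proteins bind, AKT1 was lower. It had 84.9, 118 and 99.98 CPM in ML141 replicates 1, 2 and 3, against 174, 181 and 192 CPM in DMSO replicates 1, 2 and 3. The groups did not overlap, and the log2 fold change was -0.85 (SE 0.111, adjusted p by edgeR = 5.52e-05), with 14.5% of exon bases overlapping AL583722.2 on the opposite strand. AKT2 stood at -0.065 (SE 0.095, adjusted p by edgeR = 0.585), a value above 0 with upper-quartile factors or library totals.

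Of 20 tested kinase and signalling partners 4 were higher and 5 lower, both below the 26.7% and 27.7% of all genes, with a median of 0.023. MAP3K5, a kinase of the stress MAP kinase cascade, fell by 0.73 on the log2 scale (SE 0.093). BMPR2, a BMP receptor that TRIB3 binds, rose 1.81-fold and MAP2K2 (MEK2) 1.33-fold. The other calls given here were small. MAP2K1 (MEK1) at -0.24 (SE 0.094) and MTOR at -0.21 (SE 0.072) were lost with upper-quartile factors and with library totals. MAP2K1 was also lost without any 1 library other than ML141 replicate 1, and MTOR without ML141 replicate 3 or any 1 DMSO library. BRAF at 0.25 (SE 0.094) was lost without ML141 replicate 1 or 3 or any 1 DMSO library, and RELA, the NF-κB subunit, at 0.27 (SE 0.098) without ML141 replicate 2 or 3 or any 1 DMSO library. MAPK3 (ERK1) stood at -0.050 (SE 0.121, adjusted p by edgeR = 0.746), above 0 with upper-quartile factors, library totals or without DMSO replicate 3. The list had 2 genes higher without ML141 replicate 3 or without any 1 DMSO library, and 2 lower without DMSO replicate 1 or 2 and with upper-quartile factors or library totals.

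Of 16 factors reported upstream of TRIB2, 11 passed the low-count filter, while TRIB2 itself was near 0. E2F1 had 17.9, 43.2 and 40.0 CPM in ML141 replicates 1, 2 and 3, against 86.5, 82.9 and 99.6 CPM in DMSO replicates 1, 2 and 3. ML141 replicate 1 was the lowest by a wide margin, and the log2 fold change was -1.41 (SE 0.236, adjusted p by edgeR = 3.63e-04). E2F2 fell 4.39-fold and E2F3 by 0.53 on the log2 scale. FOXO1 rose by 0.58 on the log2 scale. RUNX1, whose counts may include fusion reads, rose 1.64-fold. NOTCH1, at 75.3 CPM with ML141 and 67.2 CPM with DMSO (edgeR adjusted p = 0.372), was called higher without ML141 replicate 1 and lay below 0 without ML141 replicate 2. PITX1 stood at -0.97 (SE 0.280), a call on only 72 counts with ML141 and 110 with DMSO. MEIS1 and TAL1, active in other leukemias, had 1 count each, both in DMSO libraries. NOTCH3 had 1 count in each group, HOXA9 had 14 with ML141 and 15 with DMSO, and CEBPA had none. Of the 11 tested genes 2 were higher and 5 lower, beside 26.7% and 27.7% of all genes, with a median of 0.010, and without ML141 replicate 1 there were 4 higher.

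**Figure D4:**
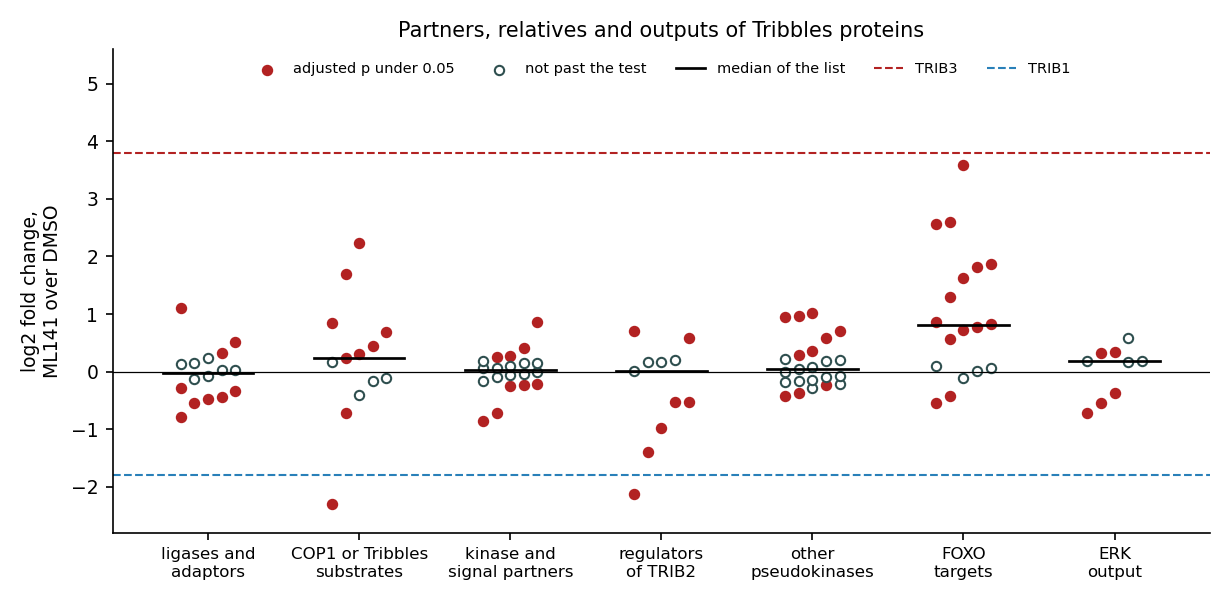
Log2 fold change, ML141 over DMSO, of each tested gene in 7 lists of partners, relatives and outputs of Tribbles proteins. Filled points passed edgeR's test at an adjusted p of 0.05, short bars are list medians and dashed lines mark TRIB3 at 3.80 and TRIB1 at -1.80. CDC25A at -2.30 and E2F2 at -2.13 lie below the TRIB1 line, and no gene lies above the TRIB3 line.

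The other pseudokinases moved over a narrow range. Of 23 tested genes 7 were higher and 3 lower, where all genes had 26.7% and 27.7%, with log2 fold changes from -0.43 to 1.02 and a median of 0.050. STK40, the closest relative of the Tribbles family, which also binds COP1, averaged 67.5 ± 4.13 CPM with ML141 and 52.7 ± 3.11 CPM with DMSO, a log2 fold change of 0.36 (SE 0.094, adjusted p by edgeR = 0.00696), a call lost without replicate 3 of both groups. KSR1, a scaffold of the RAF and MEK kinases, rose 2.03-fold, and SCYL3, with 18.1% of its exon bases overlapping C1orf112 on the opposite strand, and TBCK rose 1.95-fold and 1.93-fold. PXK, an endosomal protein, rose 1.51-fold. MLKL, the effector of necroptosis, STRADB and PAN3 were lower at -0.43, -0.37 and -0.23, calls that were lost with upper-quartile factors or library totals, where 0 genes of the list were lower. None of the 3 was called without ML141 replicate 3 or DMSO replicate 1, and 1 of them was called without DMSO replicate 2 or 3.

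Genes with the pattern most like a member were taken by the root mean square difference of log2 CPM (prior count 2), centred over the 6 libraries, among 9689 genes averaging 5 CPM or more. This is a description, with no test. Nearest to TRIB3 was TRIM66, with a difference of 0.21, followed by FBXO32 (0.28), H1F0 (0.29), RIMS3 (0.36) and CYTL1 (0.42). TRIM66, a chromatin-binding TRIM protein, had 55.8, 47.4 and 54.8 CPM in ML141 replicates 1, 2 and 3, against 4.54, 4.46 and 4.92 CPM in DMSO replicates 1, 2 and 3. None of the 5 is in the stress response or ATF4 lists, and FBXO32 is in the FOXO list. Nothing is read from this, since the measure turns largely on the size of the fold change. The 5 have log2 fold changes of 3.16 to 3.66, while those 2 lists reach at most 3.13 and 3.03. SLC6A9, at 2.15 CPM with ML141 and 0.27 CPM with DMSO, was under the 5 CPM minimum.

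Nearest to TRIB1 were PPIF (0.17), GPR3 (0.18), NME1 (0.18), SKP2 (0.19) and PRPS2 (0.19). PPIF, the mitochondrial cyclophilin, had 35.8, 42.2 and 33.7 CPM in ML141 replicates 1, 2 and 3, against 109.9, 128.9 and 115.8 CPM in DMSO replicates 1, 2 and 3. All 5, like TRIB1, had ML141 replicate 2 as the highest of the ML141 libraries, which their choice over these same libraries favours. NME1 is a nucleoside diphosphate kinase, PRPS2 makes the ribose phosphate of nucleotides, SKP2 is an F-box protein that targets CDKN1B and GPR3 is an orphan receptor.

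**Figure D5:**
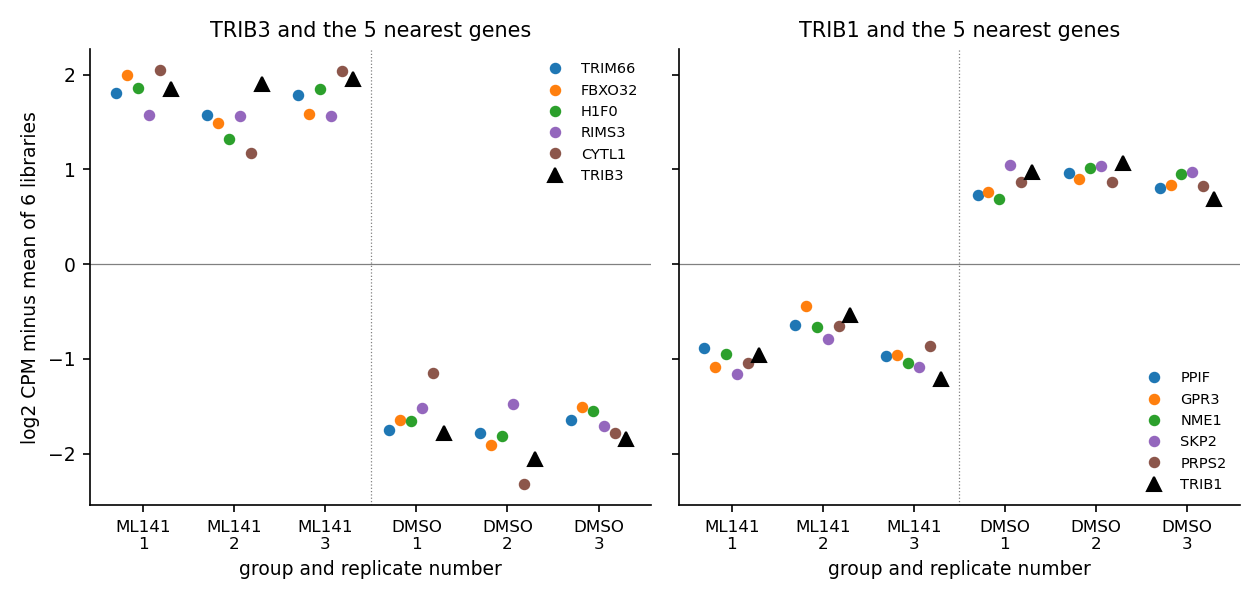
Log2 CPM of TRIB3 (left) and TRIB1 (right), as triangles, and of the 5 genes nearest to each, as dots, after subtracting each gene's mean over the 6 libraries. ML141 libraries are left of the dotted line and DMSO libraries right of it. In the right panel ML141 replicate 2 is the highest of the ML141 libraries for every gene shown, which the choice of genes by likeness over these libraries favours.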

How the data were processed

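RNA libraries of 3 ML141 and 3 DMSO cultures of REH cells were made with an Illumina TruSeq v2 kit, per the labels' protocols, a kit that does not mark strand. Groups and replicate numbers come from the titles, and columns were matched through the sample descriptions. The deposited table holds counts per gene symbol, not normalized. Trimmomatic, Bowtie2, Picard, featureCounts, DESeq2, bcl2fastq 2.19 and build hg38 are named, without settings, per the submitters' processing notes. The table also holds deposited scores, which are counts scaled by the authors and rounded, not used here, and the authors' own comparison as a fold ratio, a log2 fold change and p-values, used where named.

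From the counts, edgeR 4.0.16 in R 4.3.3 was used (filterByExpr, minimum count 10 and minimum total 15; TMM; glmQLFit and glmQLFTest, group as the only term, 2-sided, Benjamini-Hochberg over 11454 genes, threshold 0.05). SEs are the log2 fold change over the square root of F. The 3 libraries of a group differed by more than sampling noise (chi-square per degree of freedom 2.9 to 18.4), so none was counted as a duplicate. The design text speaks of independent experiments, and p-values measure the spread between these. Precision is limited by depth: 1 count was 0.0754 to 0.130 CPM. PCR copies are not independent molecules, so limits cover counting error only.

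Lengths, exon overlap and positions come from GENCODE 29 on GRCh38, the same build as hg38. A sequence of TRIB1 is not shown. Members, gene lists and tests were chosen with earlier results of these data known. The text names the members, 16 direct partners whatever their values, and in each list the 4 higher and 4 lower called genes with the smallest p, with other list genes given as values chosen after these were seen, and the 5 genes nearest in pattern to each tested member. Some genes that this rule names are not reported here. Alternatives were DESeq2 1.42.0 size factors and Wald test, upper-quartile factors, library totals, no filter, a stricter filter (1 CPM in 3 libraries and a mean count of 10 in each group), limma 3.58.1 voom, a replicate block, and each library or replicate number left out.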

Additional observations from a re-analysis of the deposited data

How the results depend on the processing

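TRIB3 stayed between 3.72 and 3.98 and TRIB1 between -2.02 and -1.62 (log2 fold change) in all 17 alternative fits, TRIB3 reaching 3.98 with library totals. Taking the longest transcript as length, TRIB3 stood at 196.8 CPM per kilobase with ML141 and 14.1 with DMSO. With prior count 0.5, PRPS2 and CYTL1 each ranked 6 and the other 8 neighbours kept their ranks.

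Small changes of partner genes depended on the scaling, which moves all genes together. With upper-quartile factors, 6 genes of the ligase and adaptor list and 6 ERK output genes were higher. Lower were 2 kinase partners, 0 pseudokinases and 1 ERK output gene. Library totals gave the same 5 counts, with 8 kinase partners and 4 TRIB2 regulators higher. AKT2 stood at 0.038 and 0.11 and MAPK3 at 0.052 and 0.12 under these scalings. With no low-count filter 2 kinase partners and 1 ERK output gene were lower, and DESeq2's Wald test also had 1 ERK output gene lower. The cause was not tested beyond the shift of the typical gene.

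Leaving out libraries or replicate numbers gave 1920 to 3195 genes higher, the lowest without replicate 3 of both groups. List counts ran from 4 to 8 COP1 substrates higher, 2 to 3 kinase partners higher and 2 to 5 lower, 2 to 4 TRIB2 regulators higher, 0 to 3 pseudokinases lower, and 0 to 3 ERK output genes higher and 1 to 3 lower. Genes near 0 changed sign: MAPK3 ranged from -0.15 to 0.064 (0.037 without replicate 3), COP1 (RFWD2) from -0.061 to 0.099 and SMURF1 from -0.071 to 0.15. Of 1240 values for the 73 genes taken by the naming rule, 1124 kept direction and call, 103 lost the call and 13 changed sign. List genes given outside that rule are not in this tally. Among them NARS and NOTCH1 changed sign, and EIF2AK3, EIF2AK4, EIF2B4 and NOTCH1 gained a call in some settings.

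With the replicate number as a block, 3441 genes were higher and 3538 lower, and EIF2AK3 was called lower. Same-numbered libraries had deviations correlating at 0.374, 0.0847 and 0.178, and the descriptions of same-numbered libraries share a name whose meaning the labels do not give. The labels do not say whether the numbers pair the cultures of 1 experiment. ML141 replicate 2 correlated best with DMSO replicate 3. Depth leaves TRIB2 unresolved.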

Other observations

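FOXO target genes, which AKT restrains, were mostly higher with ML141: 12 of 18 tested rose and 2 fell, beside 26.7% and 27.7% of all genes, the median being 0.80 on the log2 scale. FBXO32, a ubiquitin ligase subunit best known from muscle, averaged 12.3 ± 2.43 CPM with ML141 and 1.01 ± 0.166 CPM with DMSO, the latter on 28 counts. BBC3 (PUMA) rose 6.07-fold, TXNIP 3.54-fold and IRS2, an insulin receptor substrate, 2.44-fold. BCL6 and BCL2L11 (BIM) fell by 0.55 and 0.42 on the log2 scale, and BCL2L11 shares 11.9% of its exon bases with MIR4435-2HG on the opposite strand. IL7R, SESN1, INSR and CITED2 did not pass the test, though INSR did with library totals.

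Output genes of the ERK pathway, which MEK1 drives, moved both ways, with 2 higher and 3 lower of 9 tested, beside the same shares of all genes, and a median of 0.18. DUSP6, an ERK phosphatase, averaged 428 ± 54.4 CPM with ML141 and 341 ± 17.4 CPM with DMSO, with 39.4% of its exon bases overlapping AC024909.2 on the opposite strand. SPRY2 stood at 0.34 (SE 0.108), SPRY1 at -0.37 (SE 0.141) and SPRY4 at -0.54 (SE 0.211). The other lower gene was ETV4, also in the substrate list, at -0.71 (SE 0.153). Without DMSO replicate 2 no gene of the list was called higher, and 1 was without ML141 replicate 3 or DMSO replicate 1 or 3. Of the lower genes 1 was called lower without ML141 replicate 1 or 3 or DMSO replicate 2 or 3, and with upper-quartile factors or library totals 6 genes were higher and 1 lower. DUSP5 and IER3 had no count and EGR1 20 counts with ML141 and 21 with DMSO.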
